A study of Rattus norvegicus with 6 samples.

Results

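The genes described here are the glutathione, thioredoxin and peroxidase antioxidant genes of rat lung. They were taken by symbol from the deposited table: every numbered alpha, kappa, mu, omega, pi, theta and zeta glutathione transferase (Gst), microsomal glutathione transferase (Mgst), glutathione peroxidase (Gpx) and peroxiredoxin (Prdx), together with 12 named genes (Gclc, Gclm, Gss, Gsr, Nqo1, Txn1, Txnrd1, Srxn1, Sod1, Sod2, Sod3 and Cat). The rule goes by symbol, and by the mean count where a symbol has several rows, and it was set with earlier results of these data known. It gave 49 genes of the 23802 in the table, each with 1 row, and 11 of the 12 named genes had a row. Srxn1 was not analysed here.

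The study compared whole lungs of wild-type male Sprague-Dawley rats of 200 to 250 g, 3 samples from animals given saline and 3 from animals given monocrotaline (MCT) once at 60 mg/kg, taken 4 weeks later. MCT is a plant alkaloid that is activated in the liver and injures lung vessels, and rats given it are a common model of pulmonary arterial hypertension. The labels place the saline under the skin and give 2 different routes for MCT (under the skin, and into the abdominal cavity), so a difference in route and the drug cannot be told apart if the second is right. No label says whether a sample is 1 animal or a pool, so the p-values speak of the scatter of these 6 samples, part of which may be technical.

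Cells remove superoxide in steps. Superoxide dismutases turn it into hydrogen peroxide, and catalase, glutathione peroxidases and peroxiredoxins turn hydrogen peroxide and lipid peroxides into water or alcohols. Glutathione peroxidases draw on glutathione, which Gclc, Gclm and Gss make and Gsr regenerates, and most peroxiredoxins draw on thioredoxin, which Txnrd1 regenerates. Glutathione transferases join glutathione to reactive compounds. The transcription factor NRF2, made from Nfe2l2 and held down by Keap1, drives many of these genes through the antioxidant response element in their promoters, a short motif with the core TGACNNNGC.

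That core was searched on both strands in the RefSeq promoter windows (build GRCr8, 250 bases before to 50 after each start). Windows were found for 40 of the 49 genes, and 12 of the 40 held at least 1 match in any window, or 30%, where 13.1% of the 27457 genes with a window did. Counted by window, 12 of 45 member windows held a match (26.7%), beside 12.1% of all 33469 windows. The stretches below are shown because these genes stand on either side of the results. Prdx5, Sod2 and Txnrd1 rose in MCT lungs, and Prdx1, Gclm, Gpx2 and Gstp1 did not pass the test. Each runs 5′ to 3′ on the strand of its gene, with the match in capitals. Where the match lies on the opposite strand it reads GCNNNGTCA. Bases after the start were left out unless the match holds them.
Prdx5: tttgtacccacctcctgtggGCAGAGTCA
Sod2: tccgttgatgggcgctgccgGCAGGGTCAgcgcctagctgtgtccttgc
Txnrd1: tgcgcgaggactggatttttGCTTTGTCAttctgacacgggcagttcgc
Prdx1: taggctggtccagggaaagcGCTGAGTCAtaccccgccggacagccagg
Gclm: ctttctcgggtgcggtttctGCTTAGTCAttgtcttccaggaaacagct
Gpx2: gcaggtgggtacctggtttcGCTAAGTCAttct
Gstp1: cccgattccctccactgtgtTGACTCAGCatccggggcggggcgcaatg
They lie at chr1:213532020-213532048 on the minus strand (Prdx5), chr1:50050175-50050223 on the minus strand (Sod2), chr7:22755954-22756002 on the minus strand (Txnrd1), chr5:135383751-135383799 on the plus strand (Prdx1), chr2:213031943-213031991 on the plus strand (Gclm), chr6:101230034-101230066 on the minus strand (Gpx2) and chr1:210769738-210769786 on the minus strand (Gstp1). A match was present in 3 of the 8 genes that were higher in MCT lungs, in 0 of the 1 lower gene with a window, and in 8 of the 25 genes with a window that did not pass the test. Txnrd1 has more than 1 window, and the match is in 1 of them. A match describes the letters only.

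Libraries held 13525912 to 17916134 summed counts. The summed levels of alveolar type 2, club and secretory, and alveolar type 1 markers of lung were high in every sample. Among the club and secretory markers, Muc5b and Bpifa1 were low in most samples. MCT replicate 1 stood apart in its neutrophil markers, whose summed level per length was 1124 FPKM (the authors' deposited values, scaled to gene length and library size) against 100.3 and 77.7 in MCT replicates 2 and 3 and 47.7 to 89.3 in controls. MCT replicate 2 stood apart in the erythroid markers, at 8999 FPKM against 2558 to 4759.8 in the other samples. Results are therefore given with and without these samples where they move.

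Of the 49 genes, 41 had enough counts to be tested. With edgeR's quasi-likelihood test, which compares the 3 MCT with the 3 control samples, 8 rose in MCT lungs and 2 fell at a Benjamini-Hochberg adjusted p under 0.05 over all 15250 genes tested. The background was 8.01% of all genes tested higher and 5.11% lower, against 19.5% and 4.88% of these 41. The same background applies to the counts of each group, list and marker set below. The 8 were Sod2, Prdx5, Gpx1, Gsto1, Sod1, Gpx7, Txnrd1 and Prdx2, and the 2 were Gsta6 and Gstt2. The median log2 fold change of the 41 genes was 0.00, where that of all genes tested was -0.01. Control and MCT samples were fully separated in 17 of the 41 genes (41.5%, where all genes tested gave 35.4%). In 12 every MCT sample was above every control and in 5 every MCT sample was below (18.4% and 17% of all genes tested).

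The number of calls moved with the samples used, among the members and over all genes. Prdx5 alone kept its call under all 17 alternatives. Without MCT replicate 1 the counts were 3 higher and 0 lower, without MCT replicate 2 they were 8 and 5, and without MCT replicate 3 they were 3 and 0. Without control replicate 1, 2 or 3 they were 4, 2 and 1 higher and 1, 0 and 0 lower. Over all genes, 1221 were higher and 779 lower with every sample. Without MCT replicate 1, 2 or 3 these were 712, 1394 and 735 higher and 343, 978 and 324 lower. Without control replicate 1, 2 or 3 they were 964, 562 and 481 higher and 591, 273 and 212 lower. By DESeq2 9 were higher and 4 lower, beside 10.5% and 7.75% of all genes tested, and by limma-voom 7 and 2, beside 7.45% and 4.98%. At an unadjusted p under 0.05, 12 were higher and 6 lower with edgeR, beside 15.9% and 14.2% of all genes tested.

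**Figure D1:**
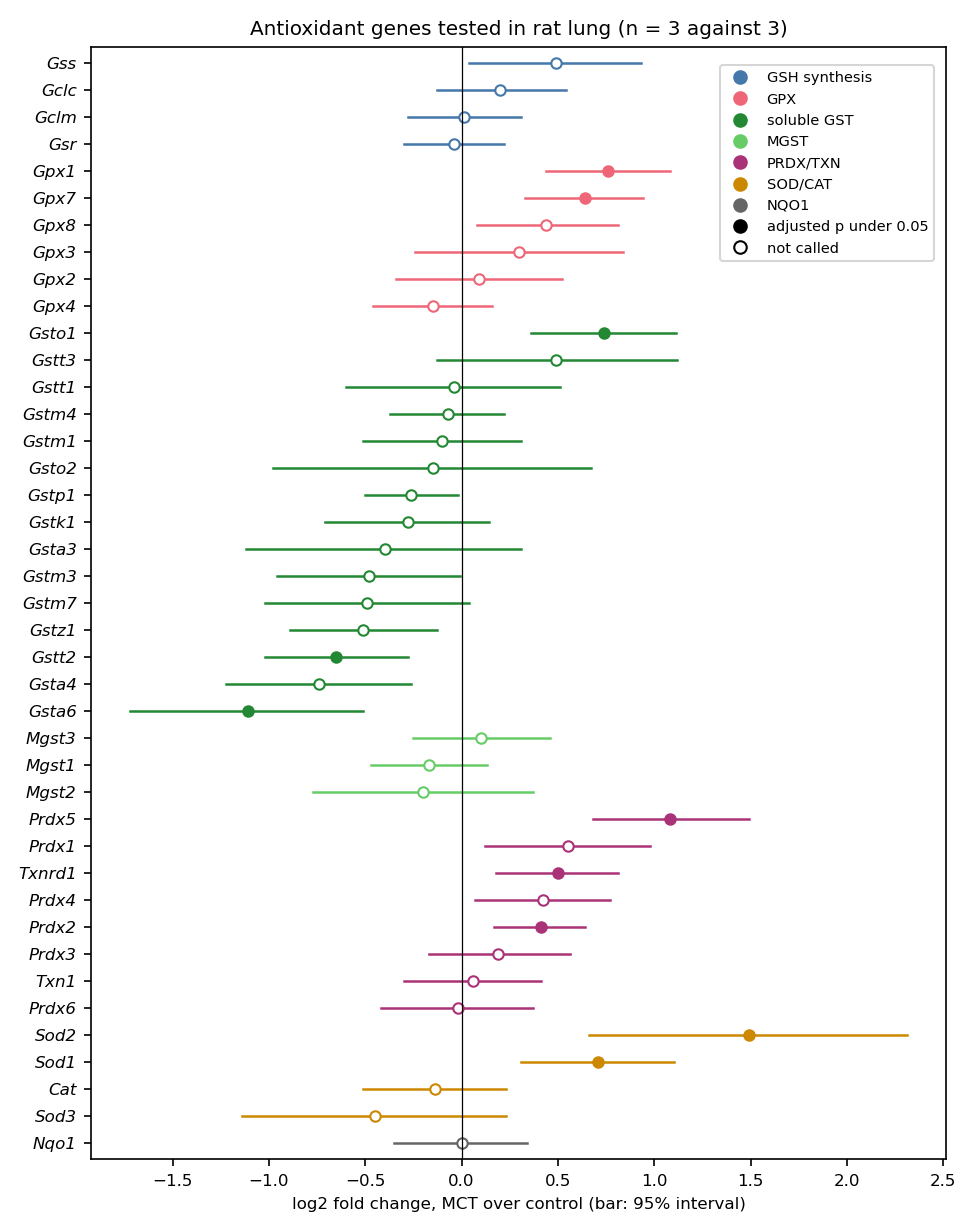
Log2 fold change of MCT over control lungs for the 41 tested antioxidant genes, with the 95% interval of each as a bar, coloured by role; filled points have an adjusted p under 0.05 (edgeR quasi-likelihood test, n = 3 samples a group). Most peroxidase and peroxiredoxin genes lie right of 0, while 13 of the 15 soluble glutathione transferases lie left of 0.

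Of the 4 genes of superoxide dismutases and catalase, 2 rose, 0 fell and 2 did not pass (0 lower also by DESeq2 and limma-voom, and at an unadjusted p under 0.05 with edgeR). Sod2, the manganese enzyme of mitochondria, stood at 54.5, 56.4 and 68.2 FPKM in control replicates 1 to 3 and at 270.3, 80.9 and 148 FPKM in MCT replicates 1 to 3. All MCT samples were above all controls, but they differed widely among themselves, with a coefficient of variation of 56.8% in normalized counts, the largest of the tested members in MCT lungs. It rose 2.8-fold (log2 fold change 1.49, SE 0.36, adjusted p = 0.0311). Without MCT replicate 1, the sample with the most neutrophil marker RNA, it was 0.96 and still called (adjusted p = 0.0478). Leaving out control replicate 1, 2 or 3 ended the call (adjusted p = 0.0827, 0.107 and 0.09), as did leaving out MCT replicate 3 (adjusted p = 0.0638), and it ended on the log2 FPKM scales (adjusted p = 0.0574 to 0.099). The neutrophil sums of MCT replicates 1 to 3 (1124, 100.3 and 77.7 FPKM) were highest where Sod2 was highest but otherwise ordered differently. Of single neutrophil markers, S100a8 (225.85, 20.48 and 25.17 FPKM) and Retnlg (11.36, 2.79 and 3.53 FPKM) had the order of Sod2. S100a9, which made most of the sum, Csf3r, Cxcr2, Mmp8 and Mmp9 did not. The mast cell sums (938, 296 and 587 FPKM) had the order of Sod2. So did the smooth muscle sums (1108, 725 and 1064 FPKM) and the fibroblast sums (910.2, 746 and 766 FPKM), while the other lists had other orders. The macrophage sums (20371, 24212 and 28093 FPKM), most of which was Lyz2, were lowest where Sod2 was highest. Single macrophage markers differed. Cd68 (138, 72.4 and 77.3 FPKM), Ctsk (115.3, 26.3 and 38.4 FPKM), Mrc1, Itgax, Adgre1 and Cd163 had the order of Sod2. Gpnmb (429, 254 and 237 FPKM), Csf1r (80.53, 73.73 and 50.55 FPKM) and Lyz2 did not, and Marco was at or near 0. The part of these cells in the Sod2 level was not tested. In whole tissue, more cells of a type and more RNA per cell cannot be told apart.

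Sod1, the copper and zinc enzyme of the cytosol, was the most abundant of this group. It stood at 233, 163 and 188 FPKM in control replicates 1 to 3 and at 326, 265 and 360.2 FPKM in MCT replicates 1 to 3, with no overlap. It rose 1.63-fold (log2 fold change 0.71, SE 0.17, adjusted p = 0.0318). Leaving out MCT replicate 1 or 3 ended the call (adjusted p = 0.0753 and 0.105), as did leaving out control replicate 2 or 3 (adjusted p = 0.106 and 0.117), and it ended on the unfiltered log2 FPKM scale (adjusted p = 0.0617).

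Sod3, the secreted dismutase bound to vessel walls and matrix, was at 47.8, 50.3 and 40.0 FPKM in controls and at 18.3, 47.9 and 33.8 FPKM in MCT replicates 1 to 3. The groups overlapped, since MCT replicate 2 lay among the controls. Its log2 fold change was -0.45 (SE 0.30, 95% interval -1.14 to 0.23, adjusted p = 0.351), which became -0.15 without MCT replicate 1 and -0.82 without MCT replicate 2 (adjusted p = 0.0684). Sod2 supplied 16.2% to 23% of the summed dismutase FPKM in controls and 44%, 20.5% and 27.4% in MCT replicates 1 to 3, while Sod3 supplied 13.5% to 18.6% in controls and 2.98%, 12.1% and 6.22%. MCT replicate 1 thus held the highest Sod2 share and the lowest Sod3 share. Catalase (Cat), the peroxisomal enzyme, had a log2 fold change of -0.14 (95% interval -0.51 to 0.23, adjusted p = 0.601).

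**Figure D2:**
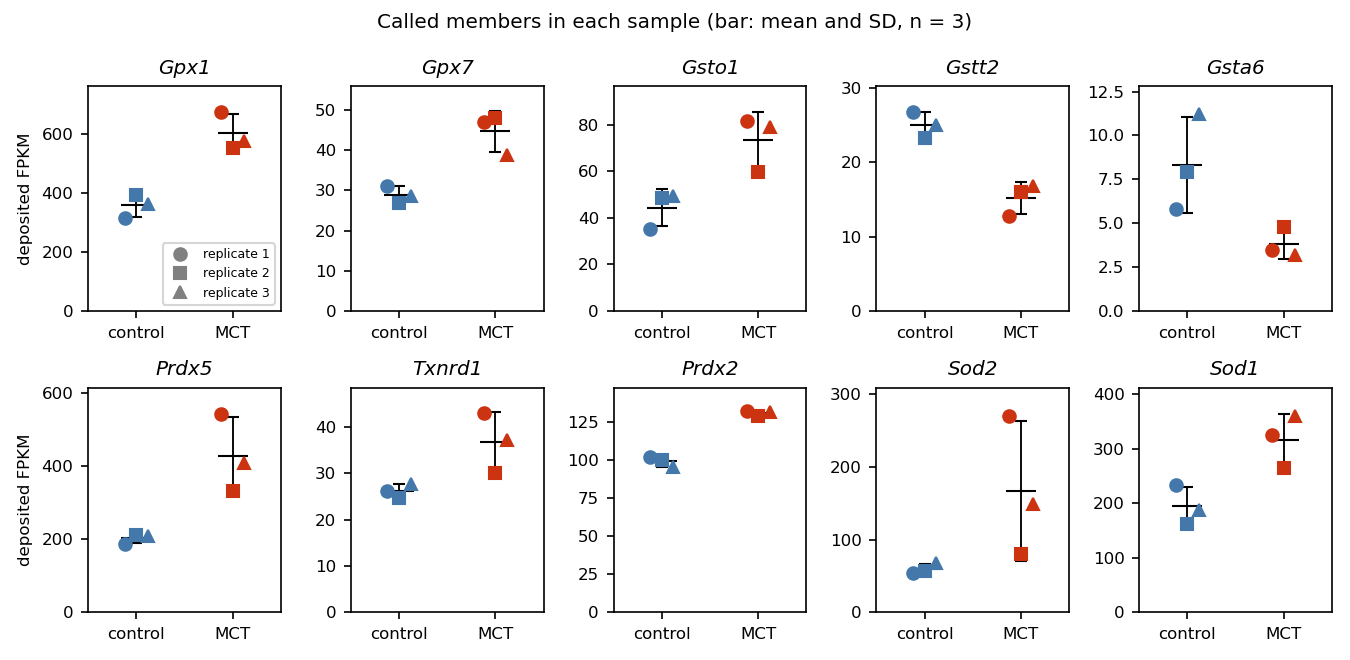
Deposited FPKM of the 10 called antioxidant genes in each of the 6 samples, with symbols for replicate number and bars for the mean and SD (n = 3). In each panel the groups do not overlap, and MCT replicate 1 holds the highest level of Sod2 (270.3), Prdx5 (541), Gpx1 (674), Gsto1 (81.8) and Txnrd1 (43).

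Peroxiredoxins, which destroy peroxides with a reactive cysteine, lay on the higher side. Of the 8 genes of the peroxiredoxin and thioredoxin group, 3 rose, 0 fell and 5 did not pass, and 7 of the 8 had a log2 fold change above 0 (0 lower also by DESeq2 and limma-voom, and at an unadjusted p under 0.05 with edgeR). Prdx5, an enzyme of mitochondria, peroxisomes and cytosol, stood at 187, 212 and 208 FPKM in control replicates 1 to 3 and at 541, 332 and 407 FPKM in MCT replicates 1 to 3. Every MCT sample was above every control. It rose 2.12-fold (log2 fold change 1.08, SE 0.18, adjusted p = 0.00769). The value was 0.89 without MCT replicate 1 and 1.23 without MCT replicate 2, and was called each time (adjusted p = 0.0108 and 0.00303).

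Prdx2, a cytosolic enzyme that is abundant in red cells, was at 102.3, 100.1 and 95.3 FPKM in controls and at 132, 129 and 132 FPKM in MCT replicates 1 to 3. It was nearly level within the MCT lungs, while the summed erythroid markers of those samples were 2942, 8999 and 2558 FPKM. It rose 1.33-fold (log2 fold change 0.41, SE 0.10, adjusted p = 0.0355). Leaving out any 1 of the 6 samples ended the call (adjusted p = 0.0526 to 0.139).

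Prdx1, the abundant cytosolic enzyme, stood at 285, 340.1 and 359 FPKM in controls and at 620.2, 379 and 433 FPKM in MCT replicates 1 to 3. The groups did not overlap, but MCT replicate 2 was close to control replicate 3. With a log2 fold change of 0.55 (SE 0.19, adjusted p = 0.0921) it did not pass. Leaving out MCT replicate 2 brought it past the threshold (0.69, adjusted p = 0.0413), as did DESeq2 (adjusted p = 0.0337). Prdx4, the enzyme of the endoplasmic reticulum, had 0.42 (adjusted p = 0.106) and the mitochondrial Prdx3 had 0.19 (adjusted p = 0.463).

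Prdx6, which also has phospholipase activity and takes part in surfactant lipid turnover, was the most abundant of all these genes per length in controls. It stood at 905, 712 and 699 FPKM in controls and at 702, 857 and 708 FPKM in MCT lungs. The groups overlapped throughout, with a log2 fold change of -0.02 (SE 0.17, 95% interval -0.42 to 0.37, adjusted p = 0.946).

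Txnrd1, the cytosolic thioredoxin reductase, stood at 26.1, 24.7 and 27.7 FPKM in controls and at 43, 30.1 and 37.1 FPKM in MCT replicates 1 to 3. It lay just inside the threshold, with a log2 fold change of 0.50 (SE 0.14, adjusted p = 0.0497). Of the 17 alternatives, 3 kept this call, and leaving out MCT replicate 1 or 3 ended it (adjusted p = 0.141 and 0.128), as did leaving out control replicate 1, 2 or 3 (adjusted p = 0.09, 0.145 and 0.129). Its substrate thioredoxin, from Txn1, had a log2 fold change of 0.06 (95% interval -0.30 to 0.41, adjusted p = 0.845).

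Among glutathione peroxidases, 2 of 6 tested genes rose, 0 fell and 4 did not pass (0 lower also by DESeq2 and limma-voom, and at an unadjusted p under 0.05 with edgeR). Gpx1, the general selenium enzyme of the cytosol, stood at 315, 393 and 363 FPKM in control replicates 1 to 3 and at 674, 553 and 576 FPKM in MCT replicates 1 to 3. No sample crossed between the groups. It rose 1.69-fold (log2 fold change 0.76, SE 0.14, adjusted p = 0.0118). Leaving out control replicate 3 ended this call (adjusted p = 0.057). Gpx1 added 244 FPKM between the group means, more than any other member.

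Gpx7 and Gpx8 make peroxidases of the endoplasmic reticulum, where they serve the oxidative folding of secreted proteins. Gpx7 was at 31.2, 27 and 28.7 FPKM in controls and at 47.2, 48.1 and 38.9 FPKM in MCT replicates 1 to 3, again without overlap. It rose 1.55-fold (log2 fold change 0.64, SE 0.13, adjusted p = 0.019), and leaving out MCT replicate 1, control replicate 2 or control replicate 3 ended the call (adjusted p = 0.0556, 0.0715 and 0.0819). For Gpx8 the groups also did not overlap, with 23.9 to 32.9 FPKM in controls and 34.4 to 45.8 in MCT lungs, but its log2 fold change of 0.44 did not pass (adjusted p = 0.105). The fibroblast markers Col1a1, Col1a2, Col3a1, Dcn, Lum and Pdgfra summed to 457 to 473 FPKM in controls and 746 to 910.2 in MCT lungs, and 2 of these 6 rose. Most of the sum was Col3a1 (means of 293 and 591 FPKM). Dcn and Pdgfra had log2 fold changes below 0 (-0.46 and -0.17) and did not pass. Their part in the Gpx7 level was not tested.

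Gpx3, the secreted peroxidase of plasma, was the most abundant glutathione peroxidase by group mean. It stood at 867, 669.8 and 728 FPKM in controls and at 646, 1198 and 926 FPKM in MCT replicates 1 to 3. The order of the MCT samples was the opposite of that for Sod2, with MCT replicate 1 lowest and below every control. Its log2 fold change of 0.30 did not pass (SE 0.24, 95% interval -0.24 to 0.84, adjusted p = 0.441), and it was 0.06 without MCT replicate 2. Gpx4, which reduces lipid peroxides within membranes, had -0.15 (adjusted p = 0.495) and Gpx2, an epithelial enzyme, had 0.09 (adjusted p = 0.786). Gpx5 and Gpx6 had no count in any sample, where 3 counts over a group, the limit a count of 0 allows, would be 0.0641 CPM (counts scaled to library size) in controls and 0.0651 in MCT lungs. That limit covers counting error only.

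**Figure D3:**
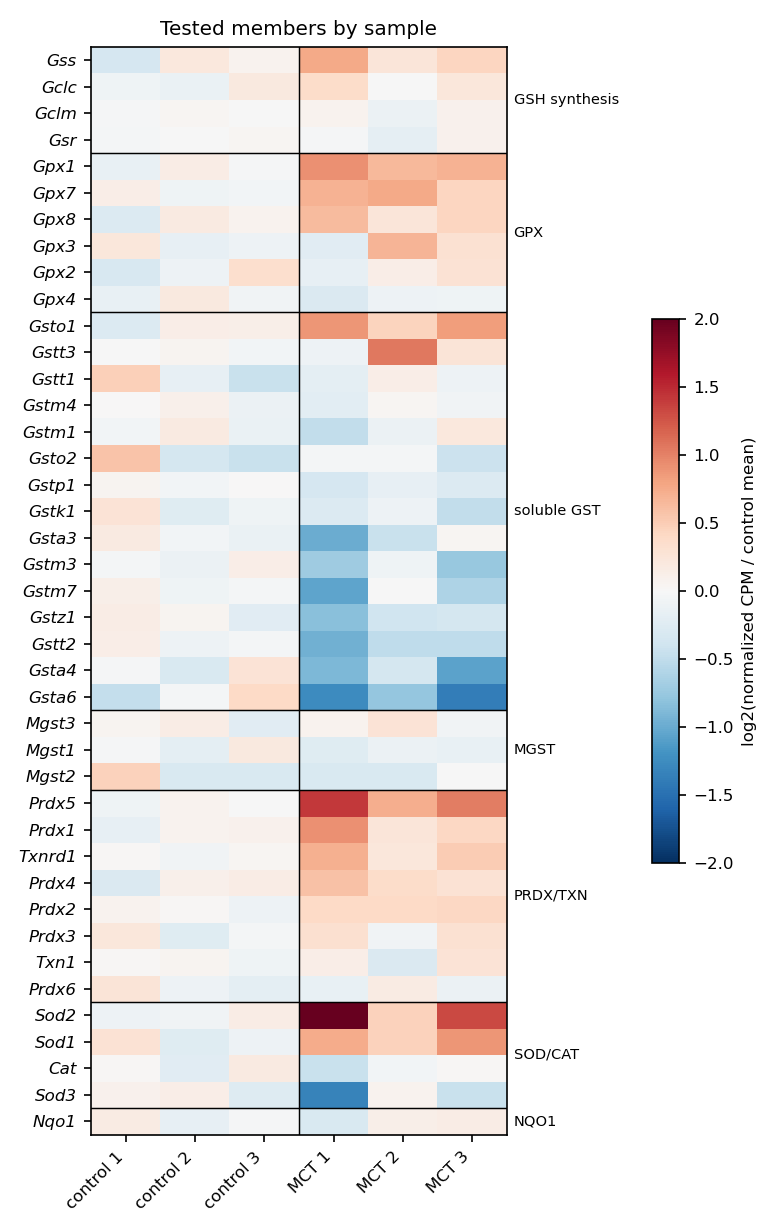
Log2 of the normalized CPM over the control mean for each of the 41 tested genes (rows, grouped by role) in each of the 6 samples (columns), with red above and blue below the control mean and colours limited at -2 and 2. The red rows of Prdx5, Sod2, Gpx1 and Sod1 and the blue rows of Gsta6, Gsta4 and Gstt2 extend over all 3 MCT samples, and the rows of Sod3, Gpx3 and Gstm7 differ between MCT replicates 1 and 2.

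The MCT samples differed among themselves. Among the 12 genes with every MCT sample above every control, MCT replicate 1 was the highest of the MCT samples in 9 and MCT replicate 2 the lowest in 10. Among the 5 with every MCT sample below, MCT replicate 2 was the highest of the MCT samples, and so nearest to the controls, in 4. Over all 41 tested genes no such order held. MCT replicates 1, 2 and 3 were the highest of the MCT samples in 11, 17 and 13 genes and the lowest in 18, 15 and 8. The median coefficient of variation of the 41 genes was 12.9% in controls and 15.8% in MCT lungs, beside 14% and 14.9% for all genes tested. After Sod2, the genes that varied most among MCT lungs were Sod3 (45.1%), Gstt3 (42.7%), Gstm7 (36.7%), Gsta3 (35.3%) and Gpx3 (30.8%), and Prdx2 varied least (0.397%).

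Soluble glutathione transferases lay mostly on the lower side. Of the 15 tested genes of 21, 1 rose, 2 fell and 12 did not pass, with a median log2 fold change of -0.28. In 13 the log2 fold change was below 0, and 6 were lower at an unadjusted p under 0.05, as were 14.2% of all genes tested. The summed level of the group was 635 to 709.9 FPKM in controls and 485, 616 and 542 FPKM in MCT replicates 1 to 3, without overlap. Whether this group differs from the other roles was not tested.

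The alpha class acts on lipid peroxides and their aldehydes. Gsta6, the called member with the lowest log2 fold change, was at 5.8, 7.94 and 11.2 FPKM in control replicates 1 to 3 and at 3.46, 4.77 and 3.16 FPKM in MCT replicates 1 to 3. The groups did not overlap, though control replicate 1 and MCT replicate 2 were close. It fell 2.16-fold (log2 fold change -1.11, SE 0.26, adjusted p = 0.0288). Leaving out MCT replicate 1 or 3 ended the call (adjusted p = 0.0853 and 0.0947), as did leaving out control replicate 2 or 3 (adjusted p = 0.0816 and 0.11), and it ended on the unfiltered log2 FPKM scale (adjusted p = 0.0746).

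Gsta4, whose enzyme clears the lipid aldehyde 4-hydroxynonenal, was the most abundant alpha gene among the members. It stood at 136, 113.5 and 175 FPKM in controls and at 76.4, 108.6 and 67.2 FPKM in MCT replicates 1 to 3. Every MCT sample was below every control, with MCT replicate 2 nearest. The log2 fold change of -0.74 (SE 0.21) lay just outside the threshold (adjusted p = 0.0519), and Gsta4 was called by DESeq2 (adjusted p = 0.0102) and on leaving out MCT replicate 2 (-0.98, adjusted p = 0.0124). It was also called with no filter, with rows of a symbol summed and with upper-quartile normalization (adjusted p = 0.0461 to 0.0477).

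Gsta3 had few counts, 4.29 to 5.03 FPKM in controls and 1.9 to 4.72 in MCT lungs, and did not pass (log2 fold change -0.40, adjusted p = 0.435). Another row, described in the table as an alpha class transferase and named LOC108348061, stood at 236 to 296 FPKM in controls and 214 to 232 in MCT lungs. It is not a member by its symbol, and reads may be split between such close copies in a way not given in the sources used here. Gsta2 and Gsta5 had no count.

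In the mu class, the abundant Gstm7 was at 133, 116 and 127 FPKM in controls and at 63.4, 125 and 85.5 FPKM in MCT replicates 1 to 3. MCT replicate 2 lay within the control range and the other MCT samples below it. Its log2 fold change of -0.49 did not pass (SE 0.23, adjusted p = 0.193), while leaving out MCT replicate 2 gave -0.82 and a call (adjusted p = 0.0157). Gstm3 followed the same pattern, with -0.48 (adjusted p = 0.161), and leaving out MCT replicate 2 gave -0.73 (adjusted p = 0.0308). Gstm1 and Gstm4 had -0.10 and -0.07 (adjusted p = 0.752 and 0.746). Gstm6 had 26 counts over the controls and 6 over the MCT samples and was not tested, Gstm6l had 1 count and Gstm3l had none.

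Gstt2, a theta class transferase, was at 26.8, 23.3 and 25.1 FPKM in controls and at 12.9, 16 and 16.9 FPKM in MCT lungs, without overlap. It fell 1.57-fold (log2 fold change -0.65, SE 0.16, adjusted p = 0.0339). Leaving out control replicate 1, 2 or 3 ended the call (adjusted p = 0.0858, 0.078 and 0.0989), as did leaving out MCT replicate 1 or 3 (adjusted p = 0.0816 and 0.0695). Gstt3 had 0.49 (adjusted p = 0.268), which was 0.09 without MCT replicate 2, where its level was 16 FPKM against 7.29 and 9.34 in the other MCT samples. Gstt1 had -0.04 (adjusted p = 0.931), and Gstt4 had no count.

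Gstz1, which isomerizes an intermediate of tyrosine breakdown, was at 35.7, 34.8 and 29.6 FPKM in controls and at 18.6, 24.9 and 26.3 FPKM in MCT replicates 1 to 3. No MCT sample reached the lowest control. Its log2 fold change of -0.51 (SE 0.17) missed the threshold (adjusted p = 0.0792), and DESeq2 called it (adjusted p = 0.0487). Gstp1, the pi class gene and the most abundant soluble transferase among the members, stood at 148, 139 and 151 FPKM in controls and at 115, 128 and 119.8 FPKM in MCT lungs. That small gap did not overlap, and it did not pass (log2 fold change -0.26, SE 0.11, adjusted p = 0.143). Gstk1, of mitochondria and peroxisomes, had -0.28 (adjusted p = 0.346).

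The transferase that rose was Gsto1, of the omega class, which reduces dehydroascorbate and mixed disulfides with glutathione. It stood at 35.2, 48.5 and 49.4 FPKM in controls and at 81.8, 59.7 and 78.9 FPKM in MCT replicates 1 to 3. The groups did not overlap. It rose 1.67-fold (log2 fold change 0.74, SE 0.16, adjusted p = 0.0231), but leaving out any 1 sample other than MCT replicate 2 ended the call (adjusted p = 0.0532 to 0.0758), as did the unfiltered log2 FPKM scale (adjusted p = 0.0607). Among the members, the omega class made up 5.74% to 7.95% of the summed soluble transferase FPKM in controls. In MCT replicates 1 to 3 it made up 17.3%, 10.1% and 14.9%. The alpha class made up 19.9% to 26.9% in controls and 16.8%, 18.9% and 13.8% in MCT replicates 1 to 3. These shares leave out the alpha class row LOC108348061 (236 to 296 FPKM in controls, 214 to 232 in MCT lungs). With it the alpha shares would be larger and the omega shares smaller. Gsto2 had few counts and a log2 fold change of -0.15 (adjusted p = 0.817).

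Markers of some other cell types differed between control and MCT lungs, and those of others did not. Their counts stand beside 8.01% of all genes tested higher and 5.11% lower. Of 9 tested macrophage markers 6 rose, among them Cd68, which rose by 1.96 (log2), while Lyz2, which made most of their summed FPKM, had -0.27, and that sum was 24422 to 32400 in controls and 20371 to 28093 in MCT lungs, with Marco at or near 0. Of 8 alveolar type 2 markers 3 fell, and their sum was 19927 to 22178 FPKM in controls and 10930.3, 16559 and 18751 in MCT replicates 1 to 3. Club and secretory markers summed to 15033 to 24695 FPKM in controls and 11552 to 21891 in MCT lungs (1 of 5 tested fell, and Bpifa1, not tested, was at 15.7 FPKM in control replicate 3 and at 0 to 0.43 in the other samples), and ciliated markers to 719 to 841 and 409 to 693, where 0 of 6 passed in either direction with edgeR. Endothelial markers summed to 1117 to 1389 FPKM in controls and 594, 1059.5 and 767 in MCT replicates 1 to 3 (4 of 7 fell). Of 7 alveolar type 1 markers 1 fell, of 6 smooth muscle markers 4 rose, of 5 mesothelial markers 4 fell, of 6 erythroid markers 2 rose and of 7 neutrophil markers 1 rose. The part of any of these cell types in the antioxidant levels was not tested.

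**Figure D4:**
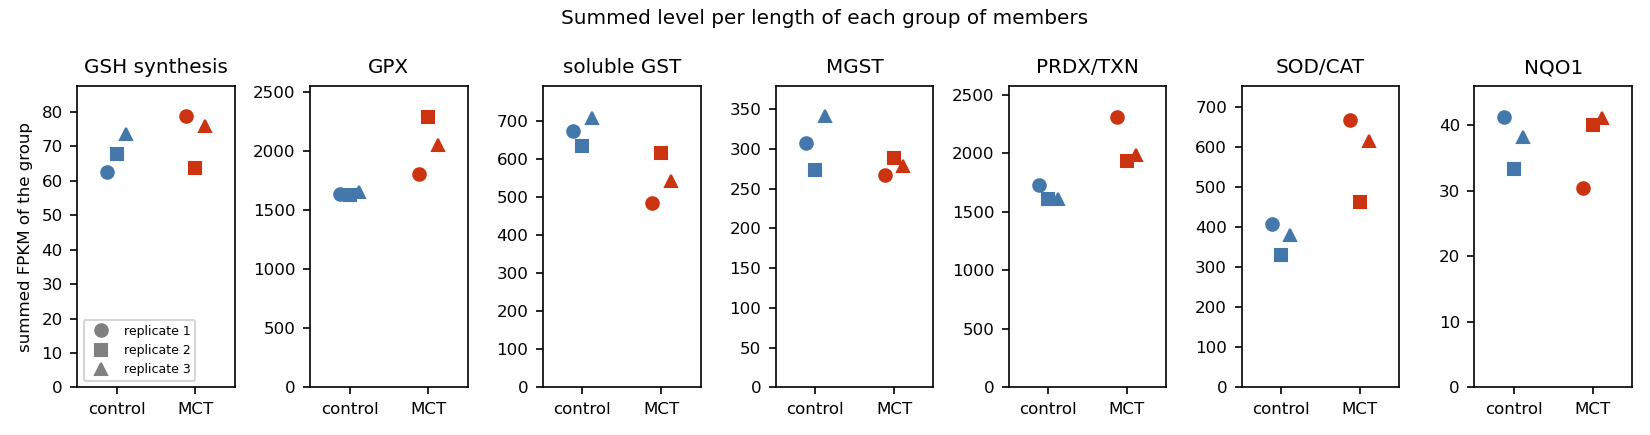
Summed deposited FPKM of each role group of antioxidant genes in each sample, with 1 symbol per replicate number; each axis starts at 0 and has its own scale. The sums of peroxidases, of the peroxiredoxin and thioredoxin group and of dismutases with catalase lie higher in all 3 MCT samples, and the sum of soluble transferases lies lower.

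Glutathione synthesis and recycling genes did not pass. Of Gclc, Gclm, Gss and Gsr, 0 rose and 0 fell with edgeR, DESeq2 or limma-voom, and 1 was higher and 0 lower at an unadjusted p under 0.05. Gss, glutathione synthetase, was at 7.48, 11 and 10.5 FPKM in controls and at 16.3, 11.2 and 12.9 FPKM in MCT replicates 1 to 3, with a log2 fold change of 0.49 (SE 0.19, adjusted p = 0.135). MCT replicate 2 exceeded the highest control by a small margin only. Gclc, the catalytic subunit of the rate-limiting ligase, had 0.20 (95% interval -0.13 to 0.54, adjusted p = 0.399) and its modifier subunit Gclm had 0.01 (95% interval -0.28 to 0.31, adjusted p = 0.959). Gsr, glutathione reductase and the most abundant of the 4, stood at 28.1, 29.3 and 31.4 FPKM in controls and at 29.1, 25.6 and 31.2 FPKM in MCT lungs, with -0.04 (95% interval -0.30 to 0.22, adjusted p = 0.861).

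Nqo1, the quinone reductase used widely as a readout of NRF2, was at 41.3, 33.3 and 38.2 FPKM in controls and at 30.5, 40 and 41.2 FPKM in MCT replicates 1 to 3. The groups overlapped. Its log2 fold change was 0.00 (SE 0.15, 95% interval -0.35 to 0.34, adjusted p = 0.988), and 0.13 without MCT replicate 1.

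Membrane glutathione transferases, which detoxify lipid peroxides in membranes, gave 0 higher and 0 lower of 3 with edgeR, DESeq2 or limma-voom and at an unadjusted p under 0.05. Mgst1, the abundant one, was at 231, 209 and 283 FPKM in controls and at 203, 219.6 and 215 FPKM in MCT lungs, which overlap. Its log2 fold change was -0.17 (SE 0.13, 95% interval -0.47 to 0.13, adjusted p = 0.434), that of Mgst2 was -0.20 (adjusted p = 0.64) and that of Mgst3 was 0.10 (adjusted p = 0.712).

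Per length, Prdx6 and Gpx3 together made up 32.1% of the summed FPKM of the 49 genes in controls and 29.7% in MCT lungs. Next in controls came Gpx1, Gpx4, Prdx1, Mgst1, Prdx5 and Sod1, from 357 to 195 FPKM on average. Neighbours such as Prdx6 (772 ± 116, SD, n = 3) and Gpx3 (755 ± 101, SD, n = 3) did not differ beyond their spread. The sum over all 49 was 4861, 4579 and 4815 FPKM in controls and 5645, 5692 and 5595 FPKM in MCT replicates 1 to 3, so that all MCT samples lay above all controls and close together. Sod2 moved from rank 17 to 9 between the groups, Sod3 from 19 to 26 and Gstz1 from 24 to 29.

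Genes that work beside these were taken from 6 lists with 85 symbols, of which 82 had a row and 80 were tested. In them 12 rose and 2 fell, with a median log2 fold change of 0.18. Of all genes tested, 8.01% rose and 5.11% fell, with a median of -0.01. These shares are also the background for each list below. Of 10 regulators 1 rose and 0 fell (0 lower also by DESeq2 and limma-voom, 2 at an unadjusted p under 0.05 with edgeR). Maff, a small partner of NRF2, stood at 17.6, 9.29 and 8.71 FPKM in controls and at 27.5, 25.9 and 31 FPKM in MCT replicates 1 to 3, without overlap. It rose 2.37-fold (log2 fold change 1.25, SE 0.27, adjusted p = 0.0206), and leaving out MCT replicate 3, control replicate 2 or control replicate 3 ended the call (adjusted p = 0.0639, 0.0796 and 0.0719). Nfe2l2 itself, at 58 to 66.5 FPKM in controls and 72.4 to 87.5 in MCT lungs, had 0.38 (adjusted p = 0.0825, and 0.0443 by DESeq2). The repressor gene Bach1 had -0.45 (adjusted p = 0.0686) and Keap1 had -0.14 (adjusted p = 0.516).

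Among 18 tested NRF2 target enzymes and transporters outside the rule, 5 rose, 1 fell and 12 did not pass. Hmox1, which breaks down haem, stood at 32.1, 20.8 and 20.7 FPKM in controls and at 214.6, 94.4 and 98.5 FPKM in MCT replicates 1 to 3. All MCT samples were far above the controls, with MCT replicate 1 highest. It rose 5.53-fold (log2 fold change 2.47, SE 0.34, adjusted p = 0.00419), and 1.99 without MCT replicate 1 was still called. The pentose phosphate pathway genes Taldo1 and Tkt rose by 0.73 and 0.51 (adjusted p = 0.00822 and 0.0237), and the ferritin gene Ftl1 by 0.85 (adjusted p = 0.0137). The calls of Tkt and Ftl1 ended without control replicate 3 (adjusted p = 0.106 and 0.0709), and that of Tkt also without control replicate 2 (adjusted p = 0.0597) and on leaving out MCT replicate 1 or 3 (adjusted p = 0.0522 and 0.0729). The Ftl1 call ended too on the unfiltered log2 FPKM scale (adjusted p = 0.0639). Aldh3a1, an aldehyde dehydrogenase, stood at 3.43, 2.36 and 3.06 FPKM in controls and at 0.51, 1.14 and 0.52 FPKM in MCT lungs. It fell 4.01-fold (log2 fold change -2.00, SE 0.39, adjusted p = 0.0137; adjusted p = 0.0537 without control replicate 3).

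In the glutathione handling list 5 of 18 rose and 0 fell (0 lower also by DESeq2 and limma-voom, and at an unadjusted p under 0.05 with edgeR). Hpgds, a sigma class glutathione transferase that makes prostaglandin D in mast cells and other immune cells, stood at 0.78, 0.95 and 1.28 FPKM in controls and at 11.3, 4.14 and 7.43 FPKM in MCT replicates 1 to 3. It rose 7.54-fold (log2 fold change 2.92, SE 0.41, adjusted p = 0.00429). Mast cell markers summed to 54.1 to 60.8 FPKM in controls and to 938, 296 and 587 FPKM in MCT replicates 1 to 3. This was the order of Hpgds, and also that of the smooth muscle and fibroblast sums. Of the 7 mast cell markers 6 rose and Kit fell (log2 fold change -0.69, adjusted p = 0.0319). Kit went from 33.5, 45.1 and 43 FPKM in controls, where it made most of the sum, to 30.6, 21.7 and 22.6 FPKM. The part of mast cells in the Hpgds level was not tested. Of the glutaredoxins, which reduce disulfides with glutathione, Glrx rose by 0.91 and Glrx3 by 0.49 (adjusted p = 0.0298 and 0.0232). Oplah, which recovers glutamate from a breakdown product of glutathione, rose by 0.88 (adjusted p = 0.0125) and Ggt1, which cleaves glutathione outside cells, by 1.06 (adjusted p = 0.0424). Leaving out control replicate 3 ended the call of Oplah (adjusted p = 0.0594). Leaving out any 1 control ended that of Glrx (adjusted p = 0.0762 to 0.0879), as did the unfiltered log2 FPKM scale (adjusted p = 0.0766). For Glrx3 every sample other than MCT replicate 2 was needed (adjusted p = 0.0552 to 0.0995 without each). Ggt1 lost its call without MCT replicate 1 or 3 or control replicate 2 or 3 (adjusted p = 0.0984 to 0.141), with limma-voom and on the log2 FPKM scales (adjusted p = 0.0531 to 0.162).

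In the thioredoxin system outside the rule, 1 of 15 genes rose and 1 fell. Txnip, whose protein binds and blocks thioredoxin, was at 405, 479.8 and 551 FPKM in controls and at 249, 239 and 238 FPKM in MCT lungs. It was level across the MCT samples and below every control. It fell 1.96-fold (log2 fold change -0.97, SE 0.15, adjusted p = 0.00588), and the call held without any 1 sample (adjusted p = 0.00979 to 0.0313). The methionine sulfoxide reductase gene Msrb1 rose by 0.59 (adjusted p = 0.0326), and needed every sample other than MCT replicate 2 (adjusted p = 0.062 to 0.107 without each); on the unfiltered log2 FPKM scale it was not called (adjusted p = 0.0637). Sesn2, a stress-induced sestrin, had 0.36 (adjusted p = 0.096).

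Of 11 genes of selenoprotein synthesis and supply, 0 rose and 0 fell with edgeR, DESeq2 or limma-voom, and 1 was higher and 1 lower at an unadjusted p under 0.05. The smallest p-values were those of Pstk, which phosphorylates the serine carried by the selenocysteine transfer RNA (log2 fold change -0.37, adjusted p = 0.1), the selenoprotein P receptor gene Lrp8 (0.91, adjusted p = 0.155) and the elongation factor gene Eefsec (0.42, adjusted p = 0.168). Lrp8 was at 1.96 FPKM in MCT replicate 1 and at 0.49 to 0.82 in the other 5 samples. Selenop, the plasma carrier of selenium, had a log2 fold change of -0.53 (95% interval -1.06 to 0.00, adjusted p = 0.169). In the list of peroxisome and dismutase partners 0 of 8 tested genes passed in either direction with any of these tools or at an unadjusted p under 0.05. Those of smallest p were Pxmp4, Aox1 and Pex14, with log2 fold changes of -0.55, -0.44 and -0.15 (adjusted p = 0.22, 0.489 and 0.556). Ccs, the copper chaperone of Sod1, had -0.03 (adjusted p = 0.9).

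**Figure D5:**
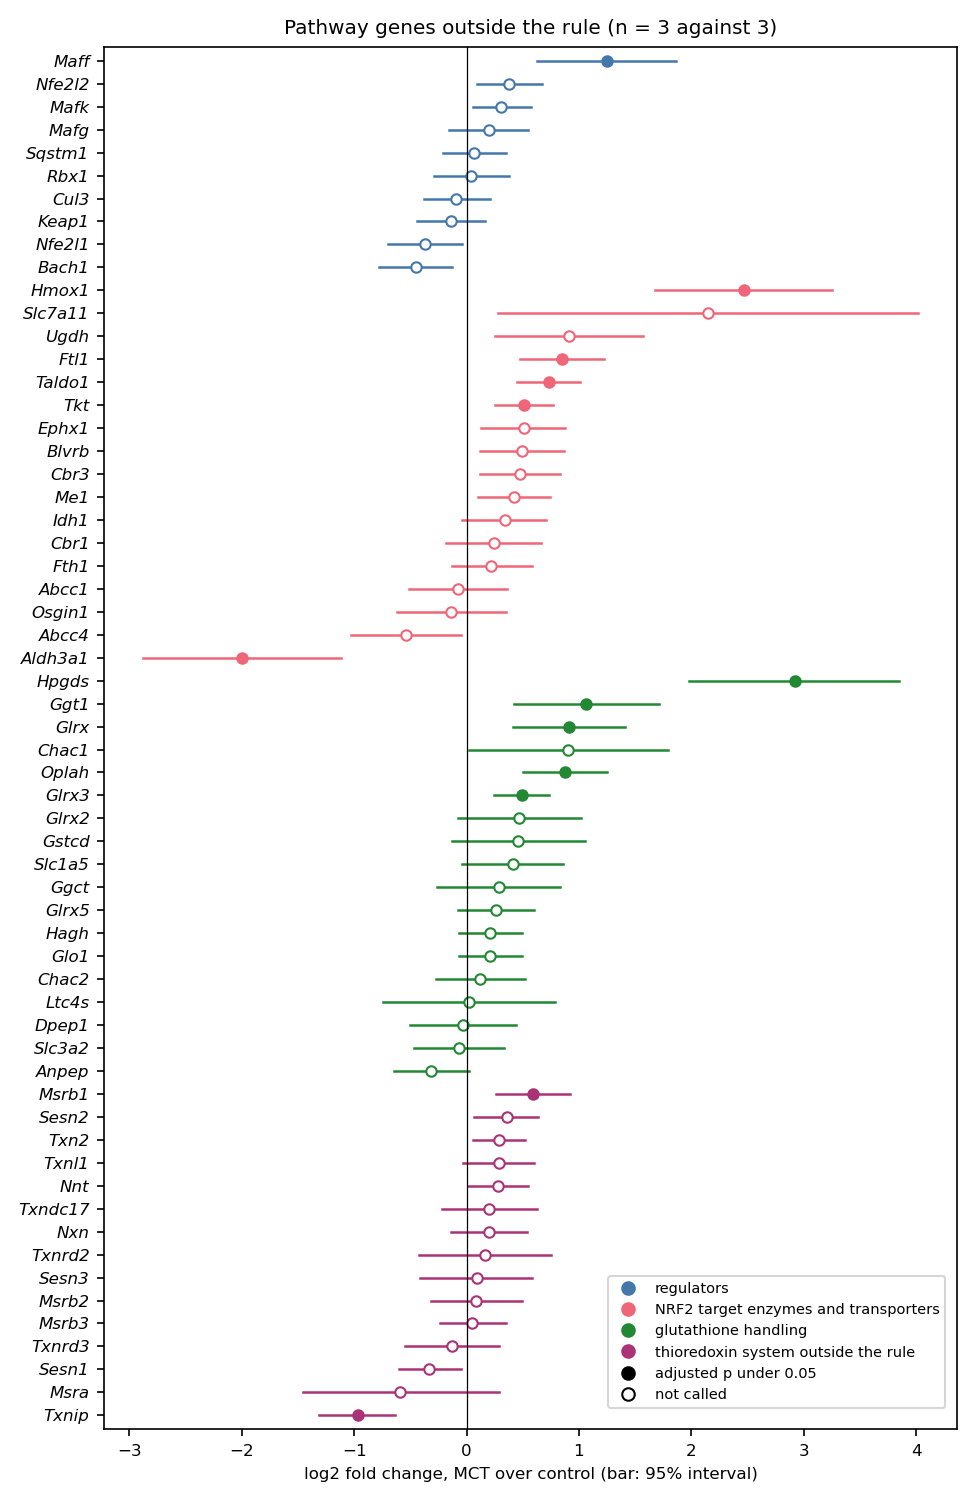
Log2 fold change of MCT over control lungs with 95% intervals for tested genes of 4 pathway lists that are not members by symbol, 1 gene left out; filled points have an adjusted p under 0.05 (edgeR quasi-likelihood test, n = 3 samples a group). Hpgds (2.92) and Hmox1 (2.47) lie farthest right and Aldh3a1 (-2.00) farthest left.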

How the data were processed

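Whole-lung polyA RNA of 3 control and 3 MCT samples was read from 1 deposited table of 23802 genes. Per the submitters' processing notes, Bowtie2 and TopHat2 2.0.3.12 were used with build Rnor_6.0; the sources used here do not give the counting tool, the annotation or the handling of reads that map to several places. The deposited estimated counts were not all whole (90.7% to 91.52% of those above 0 were, within 0.001) and were rounded to whole numbers. Of the members, 6 had a non-whole count in some sample. The deposited FPKM values are the authors' and were used for levels and for the limma alternatives. Summed counts per sample were 13525912 to 17916134, and their number limits the precision of low genes.

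MCT was compared with control by quasi-likelihood F tests in edgeR 4.0.16 under R 4.3.3, with TMM normalization, filterByExpr (minimum count 10, minimum total 15) and no covariates, with Benjamini-Hochberg adjustment over 15250 genes and a threshold of 0.05. Standard errors are the log2 fold change over the root of the F statistic, and 95% intervals use the test's degrees of freedom. Alternatives were DESeq2 1.42.0, limma-voom (limma 3.58.1), other normalizations and filters, limma on log2(FPKM + 1) or log2(FPKM + 0.1) for mean FPKM of at least 0.5 or unfiltered, each sample left out, the replicate number as a block, and summed rows of a symbol. The test was tried on simulated counts. Members, lists and markers were chosen with earlier results of these data known, and their counts are descriptions. Named with full statistics are called members, the most abundant of each role and those nearest the threshold; of the pathway lists, called genes and the 3 of smallest p in each. Keap1, Selenop and Ccs fall outside this rule and were named after their values were seen. The values of 1 pathway gene are not reported here, though the list counts include it.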

Additional observations from a re-analysis of the deposited data

How the results depend on the processing

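Members higher and lower in MCT lung numbered 8 and 2, against 4 and 1 on the unfiltered log2(FPKM + 1) scale, 9 and 4 with DESeq2, and 1 to 8 and 0 to 5 with a sample left out. All genes numbered 1221 higher and 779 lower, against 1182 lower with DESeq2, 463 lower on the unfiltered FPKM scale, and 481 to 1394 higher and 212 to 978 lower with a sample left out. Pathway genes ran from 3 to 15 higher and 1 to 4 lower with a sample left out. A fit with a sample left out has fewer samples. The cause of these changes was not tested. Same-numbered samples did not deviate together (correlations -0.0671, -0.0782 and -0.0468), and no control sample correlated best with its own number. With 3 samples a group this check cannot exclude a pairing by number. With the replicate block 5 members were higher and 1 lower, and 7 pathway genes higher. Among members the sign turned, always far from the threshold, for Gstt1 with limma-voom (0.03), for Gstt1 with the replicate block (0.00) and for Gclm with upper-quartile normalization (0.00, negative before rounding). With a sample left out the sign turned for Gpx2 (-0.04 to 0.30), Gclm (-0.01 to 0.07), Gsr (-0.10 to 0.03), Mgst2 (-0.33 to 0.10), Prdx6 (-0.13 to 0.13), Txn1 (-0.06 to 0.20), Nqo1 (-0.08 to 0.13), Gstm1 (-0.29 to 0.06), Gsto2 (-0.34 to 0.24) and Gstt1 (-0.23 to 0.27). Of the values of single members under the alternatives, 612 kept direction and side of the threshold, 55 lost the call, 10 gained it and 19 turned sign. Genes with few counts, such as Gsta3 and Gsto2, have wide intervals at this depth.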
